A study of Mus musculus with 20 samples.

Results

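Peripheral nerve inside pancreatic ductal adenocarcinomas was read through 7 genes used as Schwann cell and nerve markers: Sox10, S100b, Mbp, Ngfr, Gfra3, Cdh19 and L1cam. The genes were taken by name, with earlier results of these data known, and are 7 of the 20636 genes in the deposited table. RNA had been sequenced from whole tumours of mice, 5 tumours for each of 3 genotypes. The mice of all 15 tumours carried the Rosa26 LSL-tdTomato reporter on both copies and Ptf1aCreER. This Cre is driven in acinar cells, which make the digestive enzymes, and is active only with tamoxifen. KPAT mice in addition had floxed Trp53 (Trp53 fl/fl) and floxed Cdkn2A-Arf (fl/fl), KAT mice had floxed Cdkn2A-Arf alone, and KPT mice had floxed Trp53 alone. Mice were 8 to 10 weeks old when they were given 5 mg of tamoxifen by mouth on each of 3 days, and they were then kept until they became ill, so their age at collection was not the same by design and is not given. The Cre driver is that of the acinar lineage, and no sorting of cells is given, so glia, neurons, vessels and connective tissue contributed RNA beside the cancer cells. The 5 KT samples of the series, with neither suppressor floxed, are not analysed here.

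Schwann cells are the glia of peripheral nerve. They derive from the neural crest under the transcription factor Sox10, and mature either into cells that wrap large axons in myelin or into non-myelinating cells that bundle small axons. Most fibres of the pancreas are of the small kind, and after injury Schwann cells of either kind can return to a repair state marked by Ngfr and Gdnf. Pancreatic ductal adenocarcinoma is known for growth along nerves.

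Ngfr, the low-affinity neurotrophin receptor p75, was higher in KAT than in KPT tumours, and Mbp, which encodes myelin basic protein, was lower in KPAT than in KPT tumours. No other difference between groups passed for these genes (adjusted p under 0.05 in limma, with Benjamini-Hochberg adjustment over all genes tested). In every comparison the tumour ranges of the groups overlapped for all 7 genes. The share of all genes with overlapping ranges was not counted, so this does not set the 7 genes apart. Only 4 of the 7 genes, S100b, Mbp, Ngfr and L1cam, reached the minimum level for the test (a mean of at least 10 normalized counts). Sox10, Gfra3 and Cdh19 fell below it and were read from a fit with no minimum, in which 0 of these 3 passed in any comparison, where 13.0% of all 20636 genes passed in KPAT against KPT, 24.3% in KAT against KPT and 0.0436% in KPAT against KAT. Of the 4 tested genes, 1 (Mbp, lower) passed in KPAT against KPT, where 16.5% of all 16648 tested genes passed. This Mbp call was lost in the limma fit with no minimum (adjusted p = 0.0525). It was also lost in 11 of the 15 fits that left out a library. In KAT against KPT 1 of 4 (Ngfr, higher) passed, where 28.9% of all tested genes did. In KPAT against KAT 0 of 4 passed, where 0.0481% of all tested genes did. In that comparison none of the 4 had an unadjusted p under 0.05 in limma, against 1798 genes of all genes, and edgeR and DESeq2 also called 0 of the 4. With so few tested genes these counts are close to the shares of all genes, and they set the list apart in no comparison. The median log2 fold change of the 4 tested genes was 0.57 in KPAT against KPT, 0.99 in KAT against KPT and -0.45 in KPAT against KAT, beside medians over all tested genes of 0.02, 0.03 and a value that rounds to 0. In whole tumours fewer cells of a type and less RNA per cell cannot be told apart.

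**Figure D1:**
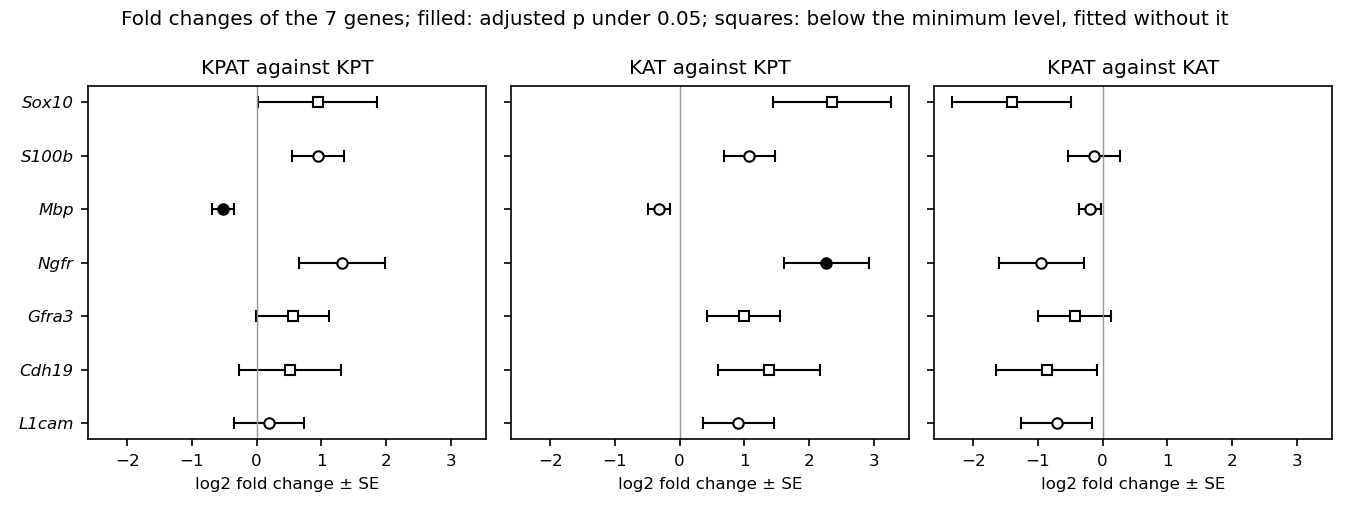
Log2 fold change with its SE (horizontal axis) of the 7 genes (vertical axis) in KPAT against KPT, KAT against KPT and KPAT against KAT, with n = 5 tumours per group; filled symbols passed an adjusted p of 0.05 and squares mark genes below the minimum level. The filled symbols are Mbp at -0.52 in KPAT against KPT and Ngfr at 2.26 in KAT against KPT.

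Gene-assigned reads per library numbered 14696138 to 26248484 in KPAT, 16704627 to 22124495 in KAT and 16622901 to 23039354 in KPT. Levels are given in deposited units, which are reads divided by a factor per library, so that 1 read was worth between 0.0370 units in KPAT 2 and 0.0671 in KPAT 4. Fold changes are on the scale of log2(normalized count + 1), which understates the change of low genes. Trp53 lay between 32.9 and 57.2 units in KPAT, 99.0 and 148 in KAT and 22.7 and 26.3 in KPT. Cdkn2a lay between 268 and 907 units in KPAT, 150 and 690 in KAT and 216 and 335 in KPT, so the floxed loci were read in all groups. Each gene has 1 value, so Arf transcripts were not separated from others of Cdkn2a, and its levels do not check the genotype. Summed levels of 10 ductal epithelium genes were 8196 to 10999 in KPAT, 7283 to 11986 in KAT and 11419 to 19531 in KPT, so markers of the labelled carcinoma were present in every tumour. The labels number the tumours within a genotype and do not say more about their origin. The p-values therefore set group differences against the spread between these tumours. Since the numbers in the library names run in separate ranges for the 3 genotypes, genotype and any batch tied to those numbers cannot be told apart.

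The 7 genes differed widely in level. Divided by exon length, Mbp was the most abundant, at 11.6 ± 2.70 deposited units per kb (mean and SD over 15 tumours). S100b followed at 5.73 ± 2.89 units per kb, L1cam at 1.38 ± 1.04 and Ngfr at 0.637 ± 0.543. Sox10 at 0.157 ± 0.183, Gfra3 at 0.125 ± 0.0909 and Cdh19 at 0.0963 ± 0.105 units per kb came last. Among 20574 genes ranked by this level per kb, Mbp stood at the 77.3 percentile, Ngfr at 29.0 and Cdh19 at 8.19. The order from Mbp to Sox10 held between neighbours in 14 or 15 of 15 tumours, whereas Sox10 exceeded Gfra3 in 7 of 15 tumours and Gfra3 exceeded Cdh19 in 11 of 15. The last 3 genes can therefore not be put in order. Because Mbp made up between 58.2% (KAT 1) and 92.2% (KPT 1) of the summed level of the 7 genes, a sum over the list is mostly a reading of Mbp.

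**Figure D2:**
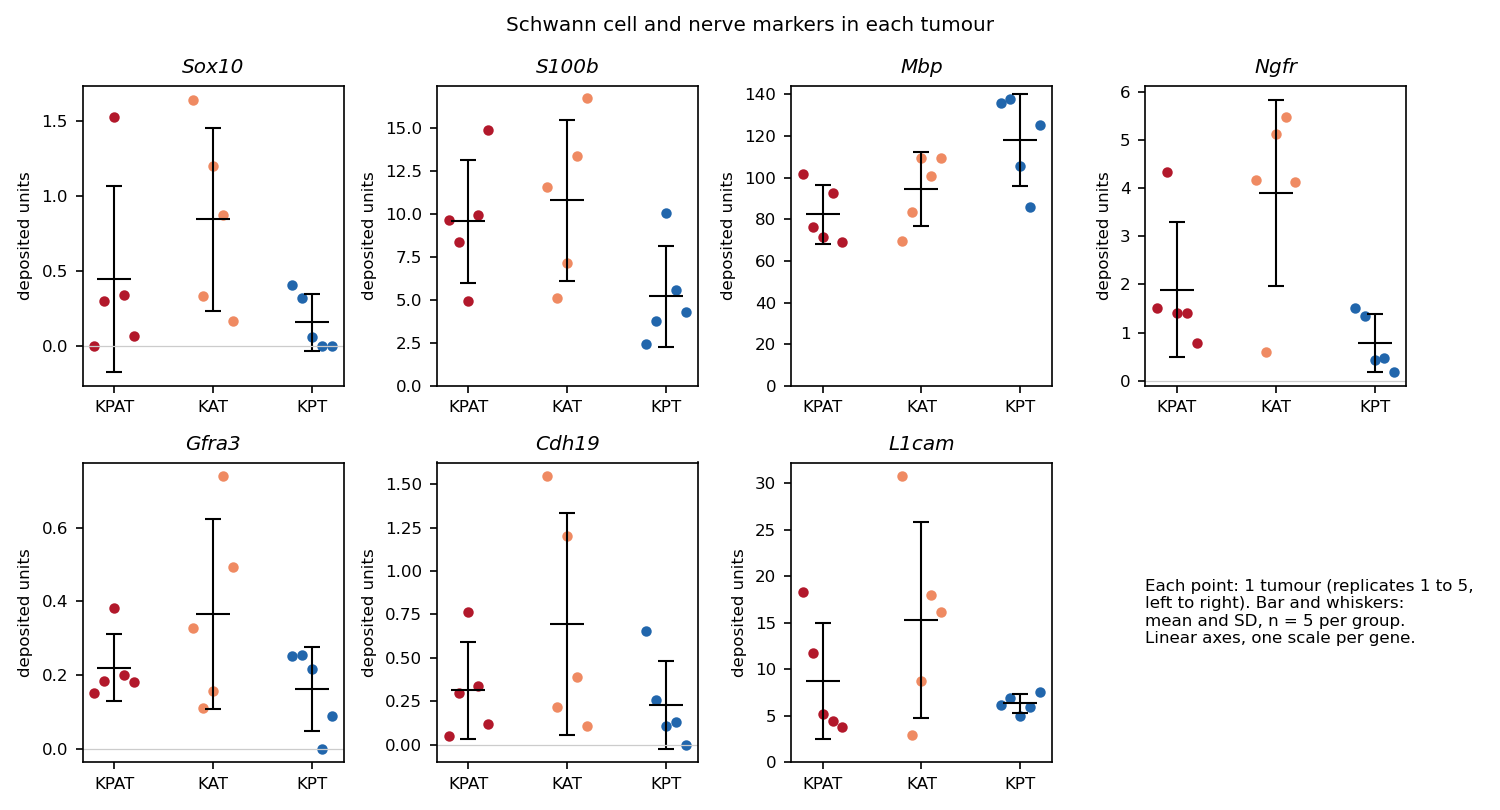
Level of each of the 7 genes in deposited units (vertical axes, linear, 1 scale per gene) in KPAT, KAT and KPT tumours (horizontal axis); each point is a tumour, bars are means and whiskers SDs (n = 5 per group). Ngfr lies between 4.12 and 5.48 in 4 KAT tumours and at 0.604 in the other, while Mbp has its highest values, 136 and 138, in KPT.

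Sox10 (ENSMUSG00000033006, GRCm38 chromosome 15, 79154908 to 79165240), which specifies the glial fate and is needed for Schwann cells at every stage, was close to the limit of detection. It was at 0, 0.296, 1.53, 0.335 and 0.0608 units in KPAT tumours 1 to 5. In KAT tumours it was at 1.64, 0.329, 1.20, 0.870 and 0.165 units, and in KPT tumours at 0.401, 0.320, 0.0540, 0 and 0 units. Of its 143 reads in all 15 libraries, 60.1% came from KAT 1, KPAT 3 and KAT 3, and no KPT tumour exceeded 8 reads. The 0 reads of KPAT 1, KPT 4 and KPT 5 allow levels of up to 0.151, 0.132 and 0.134 units (3 reads per library, counting error only). The mean was 0.444 ± 0.622 in KPAT, 0.841 ± 0.610 in KAT and 0.155 ± 0.191 in KPT (SD, n = 5). The log2 fold change was 2.35 (SE 0.91, adjusted p = 0.0718) in KAT against KPT, 0.94 (SE 0.91, adjusted p = 0.530) in KPAT against KPT and -1.41 (SE 0.91, adjusted p = 0.613) in KPAT against KAT, all with limma and no minimum. None of these passed. With edgeR on the recovered reads the adjusted p of KAT against KPT was 0.119.

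Cdh19 (ENSMUSG00000047216, chromosome 1, 110888326 to 110977584), a cadherin found in Schwann cell precursors, followed Sox10 from tumour to tumour. Its level was 0.0505, 0.296, 0.763, 0.335 and 0.122 units in KPAT tumours 1 to 5, 1.55, 0.220, 1.20, 0.392 and 0.110 units in KAT tumours, and 0.652, 0.256, 0.108, 0.132 and 0 units in KPT tumours. The same tumours that led for Sox10, KAT 1, KAT 3 and KPAT 3, held 56.9% of its 123 reads. Its log2 fold change was 1.38 (SE 0.78, adjusted p = 0.210) in KAT against KPT, 0.51 (SE 0.78, adjusted p = 0.708) in KPAT against KPT and -0.87 (SE 0.78, adjusted p = 0.727) in KPAT against KAT. Over the 15 tumours Cdh19 and Sox10 had Pearson's r of 0.92 (permutation p = 2e-05) and Spearman's rho of 0.94 (permutation p = 1e-05, the smallest that 100000 resamples can give), on log2(normalized count + 1). The r was 0.93 without KPT 4 and KPT 5, the tumours farthest from the median of Sox10, and 0.90 with the group means subtracted.

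Ngfr (ENSMUSG00000000120, chromosome 11, 95568818 to 95587735) encodes p75, a receptor for all neurotrophins that immature, non-myelinating and injured Schwann cells carry and that some mesenchymal cells carry as well. In KAT tumours 1 to 5 it was at 4.17, 0.604, 5.12, 5.48 and 4.12 units. KPAT tumours had 1.51, 4.33, 1.42, 1.41 and 0.791 units, and KPT tumours 1.505, 1.34, 0.432, 0.484 and 0.178 units. All KAT tumours but KAT 2 lay above every KPT tumour, while KAT 2 lay within the KPT range, and KPAT 2 alone of its group reached the level of the KAT tumours. Mean Ngfr was 1.89 ± 1.39 in KPAT, 3.90 ± 1.93 in KAT and 0.788 ± 0.594 in KPT (SD, n = 5), from 680 reads in all. Ngfr rose in KAT against KPT, by a log2 fold change of 2.26 (SE 0.66, adjusted p = 0.0196). The log2 fold change was 1.32 (SE 0.66, adjusted p = 0.181) in KPAT against KPT and -0.95 (SE 0.66, adjusted p = 0.629) in KPAT against KAT, so KPAT could be separated from neither group. The KAT against KPT call was lost without KAT 4 (adjusted p = 0.0515) and kept in the other 25 of 26 alternatives. Genes of other cell types moved in the same comparison, where 28.9% of all tested genes passed. All 10 general fibroblast genes were higher in KAT than in KPT, with summed levels of 6503 to 9584 units against 912 to 4061, as were 4 of 8 pericyte and smooth muscle genes (255 to 1254 against 167 to 556 units), 3 of 6 endothelial genes (150 to 458 against 113 to 214 units) and 6 of 8 macrophage genes (888 to 1802 against 465 to 665 units). KAT 2, the low KAT tumour for Ngfr, was the lowest KAT tumour for the pericyte and smooth muscle, endothelial, B cell (1.37 units) and T cell (2.64 units) sums and the highest for the macrophage sum. Their part in the Ngfr result was not tested.

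L1cam (ENSMUSG00000031391, chromosome X, 73853778 to 73896105) encodes an adhesion molecule of axons and of Schwann cells that carcinoma cells can also make. KPAT tumours 1 to 5 had 18.3, 11.8, 5.23, 4.495 and 3.77 units, KAT tumours had 30.8, 2.91, 8.77, 18.0 and 16.2 units, and KPT tumours had 6.22, 6.97, 5.02, 5.94 and 7.57 units. The KPT tumours were close together, whereas the KAT tumours spanned more than 10-fold with KAT 2 the lowest of all 15. Means were 8.73 ± 6.25 in KPAT, 15.3 ± 10.6 in KAT and 6.35 ± 0.979 in KPT (SD, n = 5). The log2 fold change of 0.91 (SE 0.54, adjusted p = 0.221) in KAT against KPT did not pass, nor did 0.19 (SE 0.54, adjusted p = 0.838) in KPAT against KPT or -0.71 (SE 0.54, adjusted p = 0.663) in KPAT against KAT. KAT against KPT passed without KAT 2 (log2 fold change 1.41, adjusted p = 0.0305) and with DESeq2 on all libraries (log2 fold change 1.27, adjusted p = 0.0437), but not with edgeR (adjusted p = 0.0800). The locus shares 100 exon bases with its neighbour Arhgap4 on the same strand.

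The promoters of Ngfr and L1cam are given because, of the genes with a promoter in the table used, these had levels that varied together over the 15 tumours (r = 0.65, adjusted p = 0.0435, but adjusted p = 0.0664 by Spearman's rho and 0.261 with group means subtracted, permutation tests adjusted over 21 pairs). They are the 250 bases before and the 50 after the transcription start in RefSeq on GRCm38.p6, and a promoter was present for 3 of the 7 genes (Ngfr, L1cam and S100b). That of Ngfr is at chr11:95587649-95587948 on the minus strand, and that of L1cam at chrX:73880741-73881040 on the minus strand, inside the annotated locus. Capitals mark the GC box, GGGCGG or its reverse complement CCGCCC.
Ngfr: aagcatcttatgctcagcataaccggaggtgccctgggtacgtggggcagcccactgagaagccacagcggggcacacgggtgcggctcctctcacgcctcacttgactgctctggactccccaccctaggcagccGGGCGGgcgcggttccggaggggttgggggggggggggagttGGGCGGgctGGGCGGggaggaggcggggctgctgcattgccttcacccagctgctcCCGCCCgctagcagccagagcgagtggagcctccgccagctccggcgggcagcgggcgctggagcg
L1cam: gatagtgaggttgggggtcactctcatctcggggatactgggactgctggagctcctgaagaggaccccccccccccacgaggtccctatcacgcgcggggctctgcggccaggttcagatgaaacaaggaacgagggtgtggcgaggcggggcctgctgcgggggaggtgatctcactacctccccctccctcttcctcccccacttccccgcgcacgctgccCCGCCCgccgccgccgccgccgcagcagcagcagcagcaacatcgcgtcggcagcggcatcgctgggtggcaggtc
The Ngfr window held 4 GC boxes and was 71.7% G and C, and the L1cam window held 1 and was 69.3% G and C, beside a median of 52.7% over all 32851 promoters. A GC box on either strand was present in 35.7% of all these promoters. Neither window held ACAAAG or its reverse complement CTTTGT, a core bound by SOX factors, which was found in 18.7% of all promoters, nor TATAAA or TTTATA, found in 13.6%. The S100b window, 53.7% G and C, held none of the 3 motifs.

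S100b (ENSMUSG00000033208, chromosome 10, 76253853 to 76261159), a calcium-binding protein of Schwann cells and other glia that adipocytes also make, had its highest values in KAT 5 and KPAT 5. KPAT tumours 1 to 5 were at 9.65, 8.37, 4.96, 9.93 and 14.8 units. KAT tumours were at 11.5, 5.11, 7.15, 13.4 and 16.7 units, and KPT tumours at 2.41, 3.77, 10.0, 5.55 and 4.28 units. KPT 3 lay above every KPAT tumour but KPAT 5. KPT 4, the highest of the other KPT tumours, lay below all KPAT and KAT tumours but KPAT 3 and KAT 2. Means were 9.55 ± 3.56 in KPAT, 10.8 ± 4.68 in KAT and 5.21 ± 2.92 in KPT (SD, n = 5). The log2 fold change was 1.08 (SE 0.40, adjusted p = 0.0537) in KAT against KPT, just short of the threshold. It was 0.95 (SE 0.40, adjusted p = 0.115) in KPAT against KPT and -0.13 (SE 0.40, adjusted p = 0.933) in KPAT against KAT. KAT against KPT passed without KPAT 3, KAT 2 or KPT 3 (lowest adjusted p 0.0190) and with DESeq2 (adjusted p = 0.0332), and KPAT against KPT passed without KPT 3 (adjusted p = 0.0454). Summed levels of 6 adipocyte genes were 5.94 to 14.1 units in KPAT, 20.6 to 96.7 in KAT and 14.7 to 122 in KPT. Of the 5 that were tested, 0 rose and 1 (Cidec) fell in each comparison with KPT (adjusted p = 0.0116 in KPAT and 0.0458 in KAT, the second lost without KPAT 4, KAT 2, KAT 3, KAT 5 or KPT 1 to KPT 4, up to 0.112), and the median log2 fold change of the 5 was 2.08 in KAT against KPT and -1.64 in KPAT against KPT. Beside this, 16.5% of all tested genes passed in KPAT against KPT and 28.9% in KAT against KPT. The part of the adipocyte genes in the S100b values was not tested. S100b overlaps Dip2a on the opposite strand without shared exon bases. Whether counting used strand is not stated.

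Gfra3 (ENSMUSG00000024366, chromosome 18, 34689898 to 34720387), the co-receptor for artemin on sensory neurons and Schwann cell precursors, had 74 reads in all. It was at 0.151, 0.185, 0.381, 0.201 and 0.182 units in KPAT tumours, 0.328, 0.110, 0.157, 0.740 and 0.494 units in KAT tumours, and 0.251, 0.256, 0.216, 0 and 0.0891 units in KPT tumours. KAT 4 and KAT 5 were the highest of the 15, and the other KAT tumours lay among the other groups. For Gfra3 the log2 fold change was 0.99 (SE 0.56, adjusted p = 0.210) in KAT against KPT, 0.56 (SE 0.56, adjusted p = 0.550) in KPAT against KPT and -0.43 (SE 0.56, adjusted p = 0.824) in KPAT against KAT. None of these passed.

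Mbp (ENSMUSG00000041607, chromosome 18, 82475146 to 82585637) encodes the protein that compacts the myelin sheath, and its long locus also gives rise to Golli transcripts outside myelin. The table has 1 value per gene, so these transcripts were not separated. Mbp was at 102, 76.4, 71.3, 92.8 and 69.2 units in KPAT tumours 1 to 5, 69.6, 83.3, 110, 101 and 109 units in KAT tumours, and 136, 138, 106, 85.8 and 125 units in KPT tumours. KPT 4 alone of the KPT tumours lay within the KPAT range, and the KAT range overlapped with both. The mean was 82.3 ± 14.2 in KPAT, 94.6 ± 17.6 in KAT and 118 ± 22.2 in KPT (SD, n = 5). Mbp fell in KPAT against KPT, with a log2 fold change of -0.52 (SE 0.17, adjusted p = 0.0458). It was at -0.32 (SE 0.17, adjusted p = 0.159) in KAT against KPT and -0.20 (SE 0.17, adjusted p = 0.698) in KPAT against KAT. Among the 15 fits that left out a library, the KPAT against KPT call was kept without KPAT 1, KPAT 4, KAT 1 or KPT 4 and lost in the other 11 (adjusted p up to 0.105), with a log2 fold change between -0.63 and -0.46 throughout. It was also lost with no minimum (adjusted p = 0.0525) and when KPAT and KPT alone were fitted (adjusted p = 0.0643). In the same comparison, where 16.5% of all tested genes passed, 2 of 10 ductal epithelium genes were lower. Of other cell types, 6 of 10 general fibroblast and 4 of 8 macrophage genes were higher. The part of these genes in the Mbp result was not tested.

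Of the 21 pairs of the 7 genes, 6 had a Pearson correlation past an adjusted p of 0.05 (permutation, adjusted over the 21 pairs). Sox10 with Cdh19 had an adjusted p of 0.00042 and was the only pair to pass also by Spearman's rho or with group means subtracted (adjusted p = 0.00021 in each). The other 5 were Sox10 with Ngfr (r = 0.68, rho = 0.59, permutation p = 0.00619), Sox10 with Gfra3 (r = 0.61, rho = 0.59, permutation p = 0.0124), Ngfr with Gfra3 (r = 0.63, rho = 0.52, permutation p = 0.0104), Ngfr with Cdh19 (r = 0.65, rho = 0.61, permutation p = 0.00883) and Ngfr with L1cam (r = 0.65, rho = 0.68, permutation p = 0.00884), each with an adjusted p of 0.0435. Without the 2 tumours farthest from the median of the gene named first, their r was 0.52, 0.39, 0.51, 0.53 and 0.72. With group means subtracted it was 0.50, 0.48, 0.49, 0.55 and 0.58, and none passed (adjusted p between 0.261 and 0.370). The other 15 pairs did not pass, among them every pair that holds S100b or Mbp, the most abundant of the 7. The r with Sox10 was -0.01 for S100b (permutation p = 0.958, rho -0.03) and -0.22 for Mbp (permutation p = 0.438, rho -0.19). With group means subtracted S100b and Sox10 had r = -0.50 (permutation p = 0.0747, adjusted p = 0.261).

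**Figure D3:**
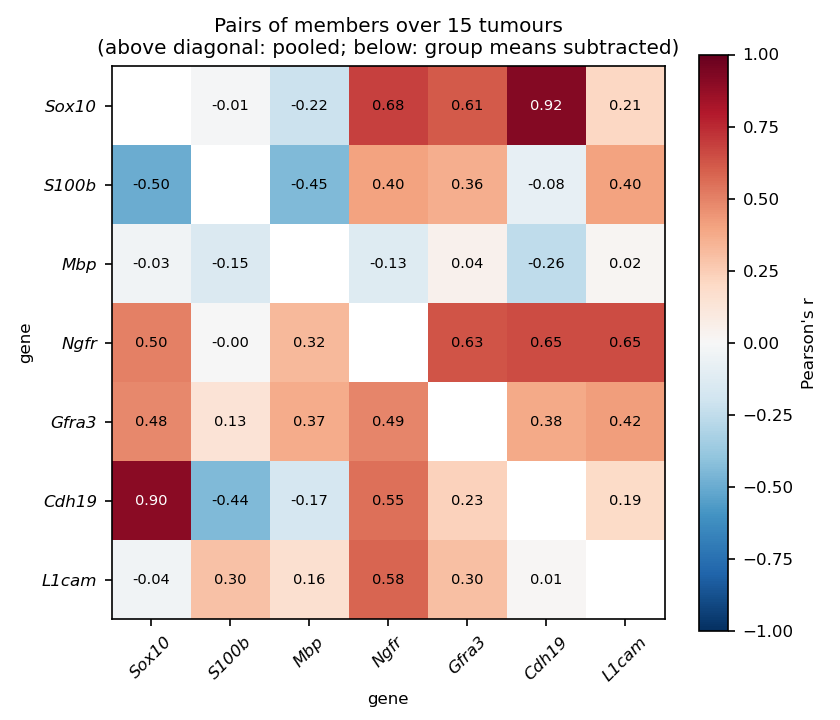
Pearson's r of log2(normalized count + 1) for each pair of the 7 genes over 15 tumours, above the diagonal for all tumours together and below it with each group's mean subtracted (both axes list the genes; colour runs from -1 to 1). Sox10 with Cdh19 stands out at 0.92 and 0.90.

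The genes whose pattern was most like each of the 7 were ranked by Pearson's r over the 15 tumours among 14022 candidates, as a description with no test. Candidates had a mean of at least 10 normalized counts, and predicted genes, pseudogenes and genes on the sex chromosomes were left out, so Sox10, Cdh19, Gfra3 and L1cam were not among them. Nearest to Ngfr were Tie1 (r = 0.94, rho = 0.99) and Tek (r = 0.92), receptor kinases of endothelial cells, followed by Mef2c, Tcf21 and Acta2 (each r = 0.91). Nearest to Sox10 among the candidates were Adgrf5 (r = 0.94), an adhesion receptor of endothelium and lung epithelium, Pgm5 (r = 0.89), a muscle adherens junction protein, Gimap5 (0.88), Mmrn1 (0.84) and Abcc9 (0.82). Cdh19 shared Pgm5 (r = 0.93) and Mmrn1 (0.83) with Sox10, and its next was Actg2, the smooth muscle gamma actin (0.82). Mbp was nearest to Zfp652 (r = 0.96), Pla2g12a (0.94), Cdk14 and Kcnj11 (0.92 each) and Tmed10 (0.91), none of them on the myelin list. S100b was nearest to Zfp40 (r = 0.88), Igfals and Map3k12 (0.87 each), Gfra3 to Rgs10 and Dclk1 (0.81 each), and L1cam to Ly6g6e (r = 0.89) and Acss2 (0.88).

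Other genes of the Schwann lineage were compared in the same fit. Of 12 further lineage genes 9 were tested. Against KPT, 3 rose and 1 fell in KAT, with a list median of 0.22, and 0 rose and 1 fell in KPAT, with a median of 0.52. Beside these counts, 28.9% of all tested genes passed in KAT against KPT and 16.5% in KPAT against KPT. Col28a1, a collagen of peripheral nerve, was at 5.25, 1.70, 58.4, 20.1 and 8.51 units in KAT tumours 1 to 5 against 2.26, 1.09, 0.594, 0.528 and 0.401 in KPT tumours, a log2 fold change of 3.54 (SE 0.79, adjusted p = 0.00478). Scn7a, a sodium channel of non-myelinating Schwann cells, averaged 33.0 ± 22.7 units in KAT and 5.29 ± 2.56 in KPT, and rose with a log2 fold change of 2.40 (SE 0.62, adjusted p = 0.0114). Gfap, an intermediate filament of non-myelinating Schwann cells, was at 2.58, 0.275, 2.45, 1.35 and 1.65 units in KAT tumours against 0.351, 0.320, 0.270, 0.308 and 0.134 in KPT tumours (log2 fold change 2.13, SE 0.63, adjusted p = 0.0204, and 0.0526 without KAT 3). As for Ngfr, KAT 2 was the KAT tumour that lay among the KPT tumours for Gfap. In KPAT tumours Scn7a averaged 18.9 ± 14.8 units (log2 fold change 1.60 against KPT, SE 0.62, adjusted p = 0.0919) and Col28a1 4.15 ± 2.44 units (2.05, SE 0.79, adjusted p = 0.0862), and neither passed. The gene that fell was Erbb3, the neuregulin receptor of Schwann cells that epithelial cells also carry, at 229 ± 109 units in KPAT, 231 ± 61.0 in KAT and 406 ± 91.9 in KPT. Its log2 fold change was -0.92 (SE 0.28, adjusted p = 0.0376) in KPAT against KPT and -0.82 (SE 0.28, adjusted p = 0.0398) in KAT against KPT. The KPAT call of Erbb3 was lost without any one of KPAT 2 to KPAT 5, KPT 1, KPT 2, KPT 3 or KPT 5 (adjusted p up to 0.0877), and the KAT call without KAT 1, KAT 2, KAT 3, KPT 1, KPT 2, KPT 3 or KPT 5 (up to 0.0888).

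Of 15 genes of peripheral myelin 13 were tested. Between KAT and KPT 6 rose and 2 fell (median 0.52), where 28.9% of all tested genes passed. In KPAT against KPT 3 rose and 0 fell (median 0.61), where 16.5% of all tested genes passed. Mag, an adhesion protein of the inner myelin surface, was at 1.91 ± 0.422 units in KAT and 0.436 ± 0.201 in KPT, a log2 fold change of 2.07 (SE 0.36, adjusted p = 0.00108). Drp2, which joins the outer myelin membrane to the basal lamina, was at 3.10 ± 1.02 units in KPAT, 3.95 ± 1.48 in KAT and 0.853 ± 0.417 in KPT, and rose in KPAT against KPT by 1.89 on the log2 scale (SE 0.44, adjusted p = 0.0120) and in KAT against KPT (2.21, SE 0.44, adjusted p = 0.00266). Cnp, an enzyme of non-compact myelin, was at 68.2 ± 10.7 units in KPAT, 68.5 ± 14.4 in KAT and 44.2 ± 7.47 in KPT, and rose in both (adjusted p = 0.0172 and 0.0103). Ncmap rose in KPAT against KPT (0.61, SE 0.18, adjusted p = 0.0304), a call lost without any one of KPAT 1, KPAT 2, KPAT 3, KPAT 5, KPT 1, KPT 4 or KPT 5 (up to 0.0728). The 2 that fell in KAT against KPT were Mal (-1.28, SE 0.27, adjusted p = 0.00372), a raft protein that epithelia carry too, and Pllp (-1.64, SE 0.46, adjusted p = 0.0161), named after its values were seen. Mbp passed as lower in KPAT against KPT, while 0 of these 13 genes did. Some of them had log2 fold changes further below 0 than that of Mbp, but did not pass. They were Fa2h (-1.26, SE 0.79, adjusted p = 0.288), Pllp (-0.86, SE 0.46, adjusted p = 0.205) and Mal (-0.71, SE 0.27, adjusted p = 0.0855).

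**Figure D4:**
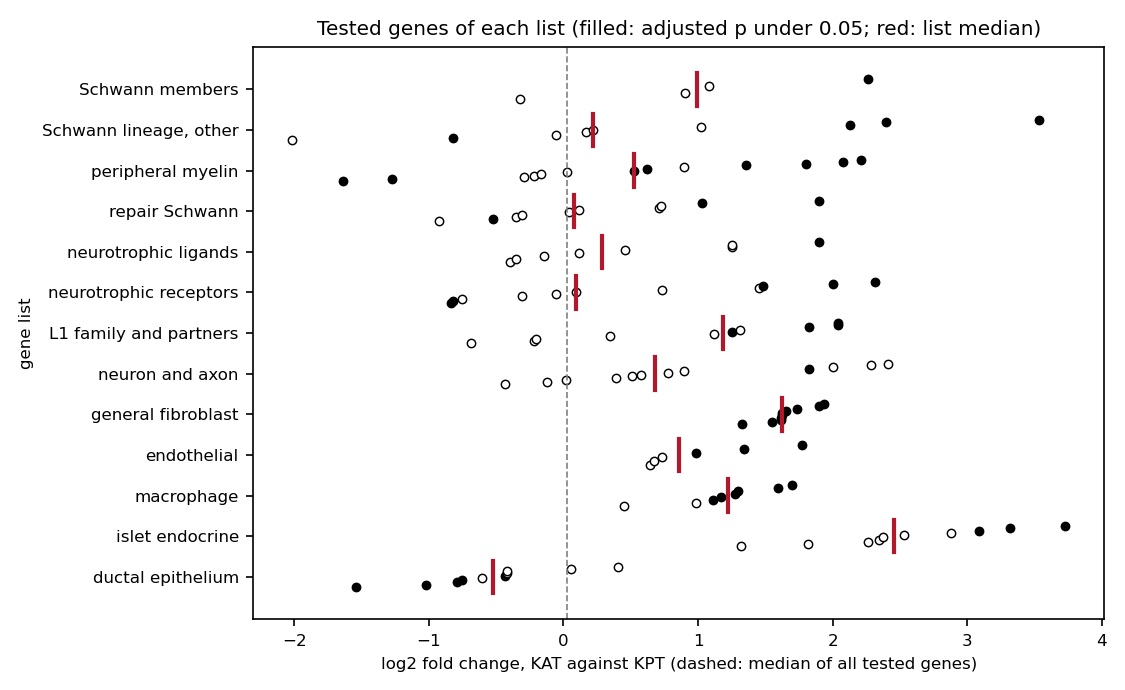
Log2 fold change in KAT against KPT (horizontal axis) of the tested genes of each list (vertical axis), with filled points for genes past an adjusted p of 0.05, red marks for list medians and a dashed line for the median of all tested genes. All 10 general fibroblast genes are filled and to the right, whereas the Schwann cell and nerve lists hold genes on either side.

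Among 10 genes of the repair state, Gdnf, a survival factor for motor and enteric neurons, rose in both comparisons with KPT. It was at 1.91 ± 1.02 units in KPAT, 2.04 ± 0.336 in KAT and 0.537 ± 0.234 in KPT, a log2 fold change of 1.68 (SE 0.38, adjusted p = 0.00991) in KPAT against KPT and 1.90 (SE 0.38, adjusted p = 0.00251) in KAT against KPT. In KAT against KPT 2 of the 10 rose (Gdnf and Mcam) and 1 fell (Btc, adjusted p = 0.0378, lost without KAT 1, KAT 3, KAT 5, KPT 3, KPT 4 or KPT 5, up to 0.0890), and in KPAT against KPT Gdnf was the 1 that rose. Mcam is also among the 4 pericyte and smooth muscle genes counted above as higher in KAT. Of 8 tested neurotrophic ligands, 2 rose in KPAT against KPT and 1 in KAT against KPT, Gdnf among them in both. Of 11 neurotrophic receptors 2 rose and 2 fell in KPAT against KPT, and 3 rose and 2 fell in KAT against KPT. For the repair, ligand and receptor counts, the share of all tested genes that passed was 16.5% in KPAT against KPT and 28.9% in KAT against KPT. Gfra2, the co-receptor for neurturin, was at 9.20 ± 5.61 units in KPAT, 7.66 ± 1.69 in KAT and 2.93 ± 1.52 in KPT, with log2 fold changes of 1.57 and 1.48 (SE 0.40, adjusted p = 0.0166 and 0.0129). Ntrk3, named after its values were seen, rose in KAT against KPT (2.31, SE 0.83, adjusted p = 0.0484), a call kept without KPAT 5, KAT 2 or KPT 5 and lost in the other 12 fits that left out a library (up to 0.119). Erbb2, the partner of Erbb3, fell in KPAT (-0.70, SE 0.15, adjusted p = 0.00758) and in KAT (-0.84, SE 0.15, adjusted p = 0.00121) against KPT, as Erbb3 did.

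Of 10 tested relatives and partners of L1cam 3 rose in KPAT against KPT, where 16.5% of all tested genes passed, and 4 in KAT against KPT, where 28.9% did. The list medians were 0.75 and 1.18, and 0 fell, while 7 and 6 did not pass. Nfasc, the L1-family protein of nodes of Ranvier, was at 47.1 ± 16.2 units in KPAT, 62.4 ± 21.8 in KAT and 16.8 ± 9.03 in KPT (log2 fold change 1.62 in KPAT and 2.04 in KAT against KPT, SE 0.40, adjusted p = 0.0142 and 0.00220). Nrp1, a semaphorin co-receptor that binds L1, was at 76.5 ± 19.7 units in KPAT, 68.0 ± 17.0 in KAT and 28.3 ± 5.91 in KPT (1.42 and 1.25, SE 0.21, adjusted p = 0.00190 and 0.000963). Ank2, an ankyrin that anchors L1-family proteins, was at 6.71 ± 1.33 units in KPAT, 9.25 ± 2.77 in KAT and 2.58 ± 0.743 in KPT (1.39 and 1.82, SE 0.25, adjusted p = 0.00402 and 0.000328). Chl1, the closest relative of L1, rose in KAT against KPT (2.04, SE 0.69, adjusted p = 0.0389), a call lost without any one of KAT 2 to KAT 5 or KPT 1 to KPT 3 (up to 0.0953). In KPAT against KAT no gene passed in any of these nerve lists, where 0.0481% of all tested genes did.

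Of the 21 neuron and axon genes with values, 12 reached the minimum level. The summed level of the 21 was 81.7 to 171 units in KPAT, 72.5 to 168 in KAT and 38.6 to 76.9 in KPT. Elavl4, a neuronal RNA-binding protein named after its values were seen, was at 0, 0.0370, 0, 0.0671 and 0 units in KPAT tumours 1 to 5, 1.41, 0, 2.04, 0.131 and 0.220 units in KAT tumours, and 0.602, 0.320, 0, 0 and 0 units in KPT tumours. Vip, the vasoactive intestinal peptide of enteric and parasympathetic neurons, was at 0.0505, 0.185, 0, 0.738 and 0.182 units in KPAT tumours, 12.2, 0.110, 8.88, 0.261 and 0.165 units in KAT tumours, and 2.26, 3.58, 0, 0 and 0 units in KPT tumours. KAT 1 and KAT 3 stood highest for both genes, followed by KPT 1 and KPT 2. These 4 tumours were also the highest for Myh11, the myosin of smooth muscle, at 276 and 293 units in KAT 1 and KAT 3 and 100 and 65.8 units in KPT 1 and KPT 2, against 5.11 to 33.9 units in all others. Sox10 followed this in part, with KAT 1 and KAT 3 at 1.64 and 1.20 units, while KPAT 3 had Sox10 at 1.53 units with no Elavl4 or Vip read and Myh11 at 8.06 units. The summed level of the whole neuron and axon list was highest in KPAT 3, at 171 units, of which Stmn2 made up 83.3 and Uchl1 70.6 units. In KPAT against KPT genes of the list moved both ways. Uchl1 had a log2 fold change of 1.53 (SE 0.58, adjusted p = 0.0815) and did not pass. Prph at -2.56 (SE 1.16, adjusted p = 0.140) and Nos1 at -2.28 (SE 1.02, adjusted p = 0.138) did not pass either. Of 12 tested neuron and axon genes, Hand2, a factor of sympathetic and enteric neurons that mesenchyme also makes, was the 1 that rose in each comparison with KPT (2.18, SE 0.63, adjusted p = 0.0300 in KPAT; 1.82, SE 0.63, adjusted p = 0.0423 in KAT). Of all tested genes 16.5% passed in KPAT against KPT and 28.9% in KAT against KPT. The KPAT call of Hand2 was lost without KPAT 2, KPAT 4, KPAT 5, KPT 3 or KPT 5 (adjusted p up to 0.0721). The KAT call was kept without KPAT 3, KPAT 4, KPAT 5, KAT 5, KPT 1 or KPT 2 and lost in the other 9 fits that left out a library (up to 0.101). Of other cells with overlapping markers, the oligodendrocyte gene Mog was at no more than 0.404 units in any tumour. Mag, on the myelin list too, was the 1 tested oligodendrocyte gene and rose in KAT against KPT, as given above. Of 2 tested melanocyte genes Mitf rose against KPT and Pmel did not pass. The log2 change of Mitf was 0.73 (SE 0.21, adjusted p = 0.0271) in KPAT and 1.18 (SE 0.21, adjusted p = 0.00125) in KAT. Its KPAT call was lost without KPAT 2, KPAT 3, KPT 1 or KPT 3 (up to 0.0609).

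**Figure D5:**
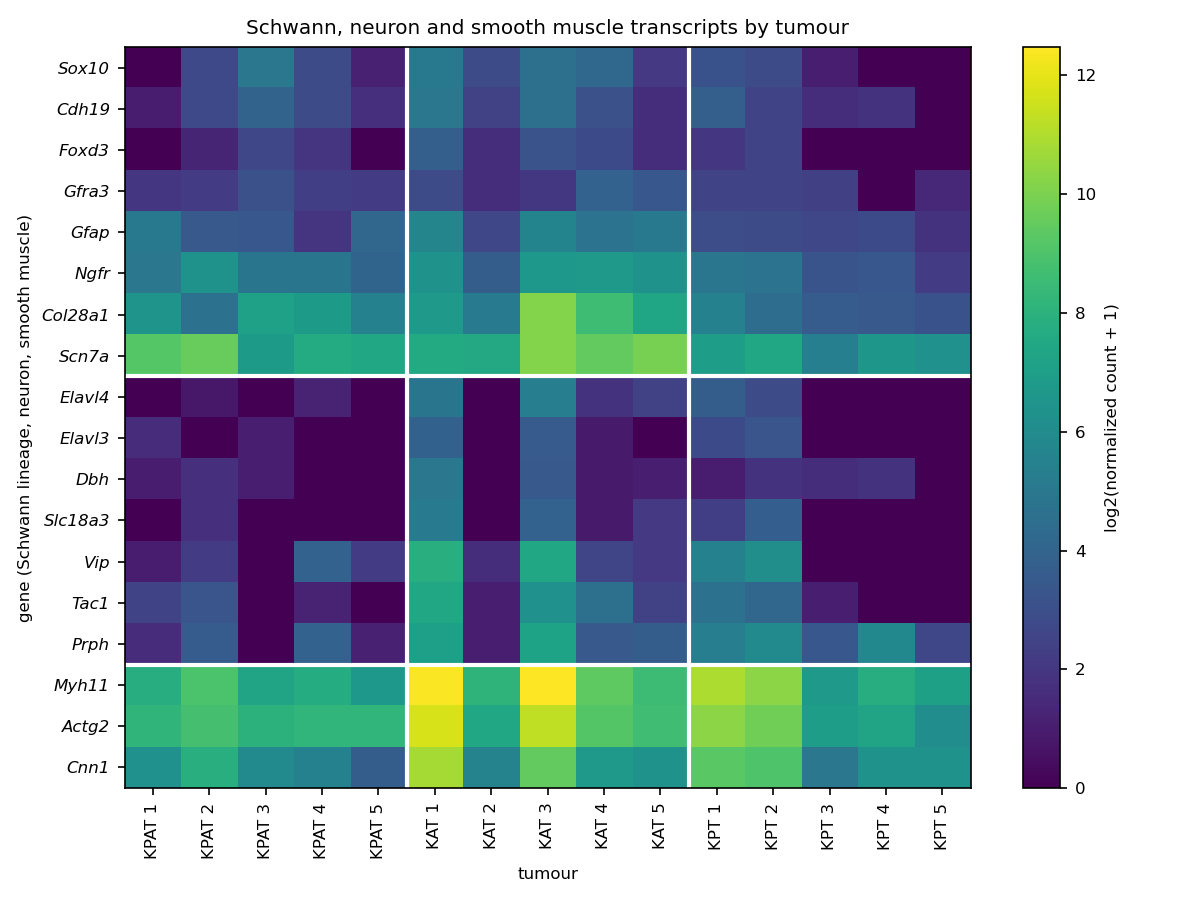
Level as log2(normalized count + 1) (colour) of Schwann lineage, neuron and smooth muscle genes (rows, chosen after their values were seen) in each of the 15 tumours (columns, KPAT, KAT, KPT). KAT 1, KAT 3, KPT 1 and KPT 2 stand highest for Elavl4, Vip and Myh11, and KPAT 3 shows Sox10 and Cdh19 with the 7 neuron genes drawn here at or near 0. The summed level of the whole neuron and axon list, 171 units, was highest in KPAT 3.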

How the data were processed

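The 7 genes and all gene lists were chosen with earlier results of these data known. RNA was extracted with an RNeasy midi kit, and libraries came from a TruSeq RNA kit on a HiSeq4000 sequencer, per the labels. Alignment used HISAT2 2.0.4 with mm10 (GRCm38), per the submitters' processing notes. Counting tool, annotation, strand setting and normalization: not given in the sources used here. Judged from their values, the authors' deposited signal values are whole reads divided by 1 factor per library, since 100% lay within 0.01 of a whole number of reads. Symbols and coordinates came from GENCODE vM21 on GRCm38, and 20574 of 20636 gene IDs matched.

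A single multiplier of 19.478 (reads per unit, geometric mean over libraries) was applied because the planned pseudocount of 1 and minimum mean of 10 assumed the scale of reads. The log2(normalized count + 1) values of 16648 genes went into 1 limma fit over the 15 libraries (version 3.58.1, R 4.3.3), with a mean per group, a trended eBayes step, two-sided tests and Benjamini-Hochberg adjustment over all tested genes. Genes below the minimum were read from the same fit over all 20636 genes. Alternatives were other pseudocounts and minimums, the deposited scale, median-of-ratios scaling, fits of 2 groups, the replicate number as a block, edgeR 4.0.16, DESeq2 1.42.0 and fits without each library or sets of libraries. An edgeR fit with no minimum was chosen after 3 of the 7 genes fell below it. Correlations used 100000 permutations. Simulated counts of 16648 genes, with changes put into KAT only, were used to test the model code. They do not measure how reliable the calls of the 7 genes are. Up to 4 genes per list and comparison were named by smallest p, with defining markers near 0. Promoters came from RefSeq. Python 3.11.15 was used for tables and plots.

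The 22 lists hold markers, and 13 of their genes, such as Olig1, Sox2, Th and Tyr, are not analysed here. Of the 7 genes, at most 1.09% of the 31-base words of a transcript set (Ngfr) were shared with another gene. Some genes taken by the naming rule, and part of the shared genotype, are not reported here.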

Additional observations from a re-analysis of the deposited data

Results flagged for a closer look

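In 4 of the 21 sets of 5 tumours (7 genes in 3 groups), 1 tumour stood far from the others of its group by Dixon's criterion (gap over range above 0.71). Chance alone meets it in about 1 in 20 sets if values are normally distributed. Here it was applied to deposited units, and Sox10 and Gfra3 rest on few reads, so that rate may not hold. Sox10 reached 1.53 units in KPAT 3, with the other KPAT tumours between 0 and 0.335. Gfra3 was highest in the same tumour, at 0.381 units against 0.151 to 0.201 in the others of the group, a difference of few reads. Ngfr was at 4.33 units in KPAT 2, with the other KPAT tumours between 0.791 and 1.51. Ngfr was also far lower in KAT 2, at 0.604 units, than in the other KAT tumours at 4.12 to 5.48. KAT 2 held the lowest L1cam and S100b values of its group as well, at 2.91 and 5.11 units, and Sox10 at 0.329 units was second lowest there.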

How the results depend on the processing

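Calls among the 7 genes were sensitive to single libraries. In KPAT against KPT the count of lower genes went to 0 with no minimum, with edgeR and no minimum, with only those groups in the fit, without KPT 1 and KAT 1 together, without KPT 3, KAT 2 and KPAT 5 together, and with the replicate number as a block, and over fits without 1 library it ran from 0 to 1, as did the count of higher genes. In KAT against KPT the count of higher genes ran from 0 to 3 over such fits, was 3 with DESeq2 and without KPT 3, KAT 2 and KPAT 5, and was 0 at a minimum mean of 50 and on the deposited scale, where Ngfr was not tested. All genes called in KPAT against KPT numbered 2752, but 1811 with only those groups, 1728 without KPT 3, KAT 2 and KPAT 5, and 1687 (without KPAT 2) to 2895 over fits without 1 library. In KAT against KPT these fits gave 3539 to 4847 against 4805. KPAT against KAT gave 8 genes, but 4 on the deposited scale, 15 with only those groups, 284 with DESeq2, 17 without KPT 3, KAT 2 and KPAT 5, and 7 to 45 (without KAT 2) over fits without 1 library. The log2 fold change of L1cam in KPAT against KPT ran from -0.14 (without KPAT 1) to 0.43 (without KPAT 5), and that of S100b in KPAT against KAT from -0.37 (without KAT 2) to 0.080 (without KPAT 3), with 0.055 without KAT 5. Of the 6 correlated pairs, 1 passed by Spearman's rho and 1 with group means subtracted. With group means subtracted, same-numbered tumours of 2 groups correlated between -0.21 and 0.25, and 5 of 15 such pairs were above 0.1. Tumours with different numbers were not compared in this way, so these values cannot decide whether the numbers pair the tumours. The replicate number as a block ended the Mbp call (adjusted p = 0.0969 in limma). It called 2248 genes in KPAT against KPT, 4313 in KAT against KPT and 7 in KPAT against KAT. The causes were not tested. With 74 to 143 reads in 15 libraries, counting error limits Gfra3, Cdh19 and Sox10 most.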
